A study of Homo sapiens with 15 samples.

Results

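The glucocorticoid receptor gene NR3C1, the kinase genes SGK1 and SGK3 and 7 further nuclear receptor genes (VDR, RARA, RARG, RXRA, RXRB, ESRRA and NR1H2) were followed in LNCaP cells treated with androgen, with or without the antiandrogen darolutamide. The genes were chosen by name, without use of their measured values, although earlier results of these data were known. The same holds for the gene lists used below. All 10 genes were present among the 17272 genes of the expression table. LNCaP is an androgen-sensitive human prostate cancer line, so the groups describe 1 cell line and no tumour tissue. Cells of both groups were starved for 2 days in medium whose serum had been treated with charcoal to remove steroids, and were harvested after 22 h of treatment. The R1881 group (n = 10) received the synthetic androgen R1881 at 1 nM, with DMSO in the library names. The combination group (n = 5) received R1881 at 1 nM together with darolutamide at 2 µM, and its labels do not mention DMSO. Polyadenylated RNA was sequenced, and expression is given as normalised read counts (CPM, reads of a gene divided by 1 factor per library, which the sources used here do not describe). The values of a library summed to 1053410 to 1078570 in the R1881 group and to 1005400 to 1031220 in the combination group, so that they are not plain counts per total.

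Nuclear receptors are transcription factors that bind small lipophilic ligands such as steroids, retinoids, vitamin D and oxysterols. The glucocorticoid receptor is a steroid receptor that, like the progesterone and mineralocorticoid receptors, recognises a DNA palindrome. In prostate cancer the glucocorticoid receptor is known for its ability to drive part of the androgen-induced genes when androgen action is blocked. SGK1 and SGK3 are serine/threonine kinases related to AKT, and SGK1 is known to be induced by glucocorticoids and by androgens. Receptors for retinoic acid, vitamin D and oxysterols bind DNA as heterodimers with a retinoid X receptor, whereas the estrogen-related receptor ERRα binds without a known natural hormone.

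Depth was 15830745 to 24316740 reads per R1881 library and 21870398 to 25317567 reads per combination library. The library numbers in the labels ran from 51 to 55 and from 71 to 75 for R1881 and from 86 to 90 for the combination, so that the number series and the treatment cannot be told apart. Between the groups, the share of reads in the 20 most abundant genes went from 6.47 to 6.80% up to 7.33 to 8.12%, and that of mitochondrially encoded genes from 2.65 to 3.02% up to 3.12 to 3.94%. The part of these shifts in the results was not tested. The androgen-induced gene FKBP5, a cochaperone of steroid receptors, fell from 1502 ± 87.4 CPM (SD, n = 10) to 152.1 ± 11.1 CPM (SD, n = 5), and KLK3, which encodes PSA, fell from 1588 ± 209 to 615 ± 55.9 CPM. Combination replicate 4 stood apart from the other 4 combination libraries for 7 of the 10 genes. Its genes of high GC content were relatively high, with a trend of 0.350 on the log2 scale per 10 percentage points of GC against the mean of all 15 libraries. The corresponding trend was 0.229 in R1881 replicate 6 and -0.234 in combination replicate 3, while the remaining libraries lay between -0.127 and 0.127.

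With darolutamide, SGK1 and SGK3 were lower, NR3C1 and RARG were higher, and the other 6 genes did not pass the test (limma on log2(CPM + 0.5) across all genes, Benjamini-Hochberg adjusted p under 0.05). Of the 10 genes 4 were thus called, where 46.6% of all genes were called in either direction, 23.7% as lower and 22.8% as higher. When reads were scaled by library totals, which removes the difference between groups in the column sums, the shares over all genes were 17.5% lower and 30.8% higher (48.4% in all), and among the 10 genes RXRB was called in addition. The groups did not overlap for 3 of the 10 genes, against 23.4% of all genes. SGK1 and SGK3 lay below R1881 in every combination library (12.6% of all genes) and NR3C1 lay above (10.8%). Beside these shares the counts among the 10 genes are a description only. In RNA from whole cultures, fewer cells expressing a gene and less RNA per cell cannot be told apart. All p-values rest on the spread between libraries alone, whose origin from separate cultures is not described in the labels.

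**Figure D1:**
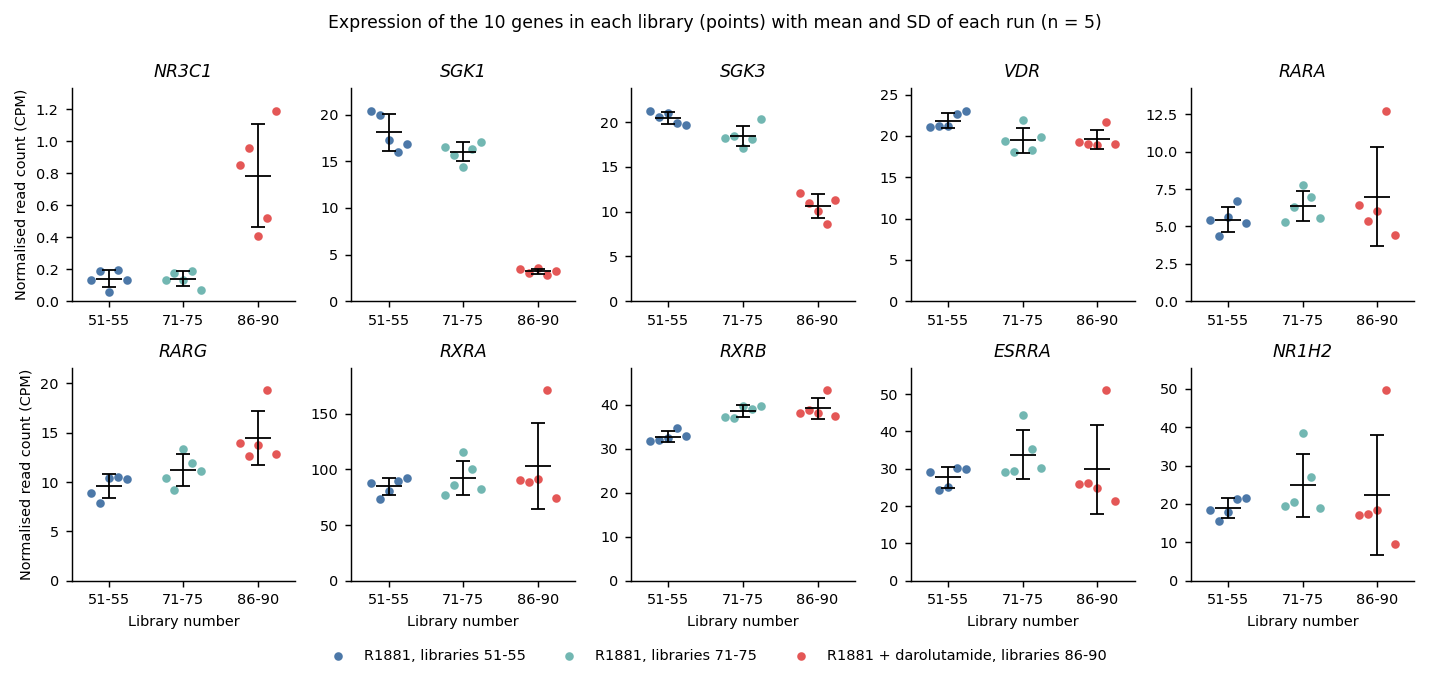
Normalised read counts (CPM, linear axes from 0) of the 10 genes in each library, by library number (R1881 51 to 55 and 71 to 75, combination 86 to 90), with the mean and SD of each run of 5 libraries. SGK1 lay between 2.78 and 3.52 CPM in the combination and between 14.4 and 20.4 CPM with R1881, and 1 combination library was high for RARA, RXRA, ESRRA and NR1H2.

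NR3C1, which encodes the glucocorticoid receptor, was close to the detection limit with R1881 and higher with the combination. The gene lies on the minus strand of chromosome 5 of GRCh38 from 143277931 to 143435512. With R1881 its level was 0.0599 CPM at the lowest, 0.134 at the median and 0.194 at the highest, which stood for 1 to 4 reads per library. The combination libraries gave 0.957, 0.849, 1.19, 0.519 and 0.407 CPM, or 9 to 27 reads. Every combination library was above every R1881 library, although the 5 values differed among themselves by more than 2-fold. Pooled over libraries, 29 reads of 215314708 with R1881 stood against 92 reads of 117350583 with the combination, a ratio of 5.82 (95% confidence interval 3.80 to 9.17, counting error only). On the log2(CPM + 0.5) scale, which understates the change of low genes, the log2 fold change was 0.97 (standard error 0.126, adjusted p = 5.14e-06 from limma). It was 1.82 with a pseudocount of 0.1, 0.63 with 1, 2.43 in edgeR and 2.48 in DESeq2, and the call was kept in each of these. NR3C2, the mineralocorticoid receptor gene, was at 15.5 ± 1.84 and 16.9 ± 1.49 CPM and did not pass the test (log2 fold change 0.12, adjusted p = 0.245 from limma).

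Genes that mark other cell types were counted beside the low values of NR3C1, a gene that stromal and blood cells express. The table holds 3 of 6 fibroblast markers, and all 3 were higher in the combination, where 22.8% of all genes were called higher. Their summed level was 6.36 to 10.53 CPM with R1881 and 13.5 to 30.6 CPM with the combination. COL1A2, DCN and PDGFRB were not among the genes listed. Of the 3 fibroblast markers held, the collagen gene COL3A1 went from 1.84 to 8.19 CPM on average, without overlap between the groups. COL1A1 went from a median of 5.55 to 8.58 CPM, its groups overlapped, and its highest combination value was 20.6 CPM. LUM was low, at 0.213 and 0.496 CPM on average. Of 6 immune and endothelial markers only VWF was listed, at 2.56 and 3.82 CPM. Of 4 basal epithelial markers 2 were listed, with a summed level of 0.879 to 1.62 CPM with R1881 and 0.707 to 0.930 CPM with the combination. All 8 luminal markers were listed, 6 lower and 2 higher (23.7% and 22.8% of all genes), with sums of 7216 to 8442 and 3759 to 3965 CPM. The part of these markers in the rise of NR3C1 was not tested.

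SGK1, the serum- and glucocorticoid-induced kinase that regulates ion channels and cell survival, fell in every combination library. It lies on the minus strand of chromosome 6 from 134169248 to 134318112. Its level with R1881 was 14.4 CPM at the lowest, 16.7 at the median and 20.4 at the highest, whereas the combination libraries gave 3.03, 3.44, 3.21, 2.78 and 3.52 CPM. The combination values lay close together and far below the lowest R1881 library. This was a log2 fold change of -2.25 (standard error 0.078, 95% confidence interval -2.41 to -2.08, adjusted p = 8.38e-14 from limma). Against the R1881 libraries 51 to 55 alone it was -2.33, and against 71 to 75 alone it was -2.16.

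SGK3, a related kinase that is recruited to endosomes through a phosphoinositide-binding domain, fell less than SGK1. It lies on the plus strand of chromosome 8 from 66712734 to 66862022. Its level was 17.1 CPM at the lowest, 19.8 at the median and 21.3 at the highest with R1881, and 11.01, 12.1, 11.3, 8.58 and 10.1 CPM in the combination. Here too the groups did not overlap, and the log2 fold change was -0.85 (standard error 0.072, adjusted p = 2.25e-08 from limma). The readthrough gene C8orf44-SGK3 shares 44% of the exon bases of SGK3 on the same strand, and it is not listed, so the value of SGK3 may be split between both names in an unknown way. SGK2, the remaining kinase of the family, fell from 2.89 ± 0.344 to 1.88 ± 0.382 CPM (log2 fold change -0.52, adjusted p = 0.000505 from limma). Its level was low and its groups overlapped, with a lowest R1881 value of 2.20 CPM and a highest combination value of 2.23 CPM.

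The kinase genes SGK1 and SGK3 had similar read counts with R1881 and differed in the combination. The log2 ratio of SGK1 to SGK3 was -0.19 ± 0.0906 (SD, n = 10) with R1881 and -1.58 ± 0.141 (SD, n = 5) with the combination. This difference of -1.39 gave p = 0.000333 in a two-sided exact permutation test, the smallest value the 3003 assignments of the group labels allow (adjusted p = 0.00133 over 4 ratios), and the ratios did not overlap.

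**Figure D2:**
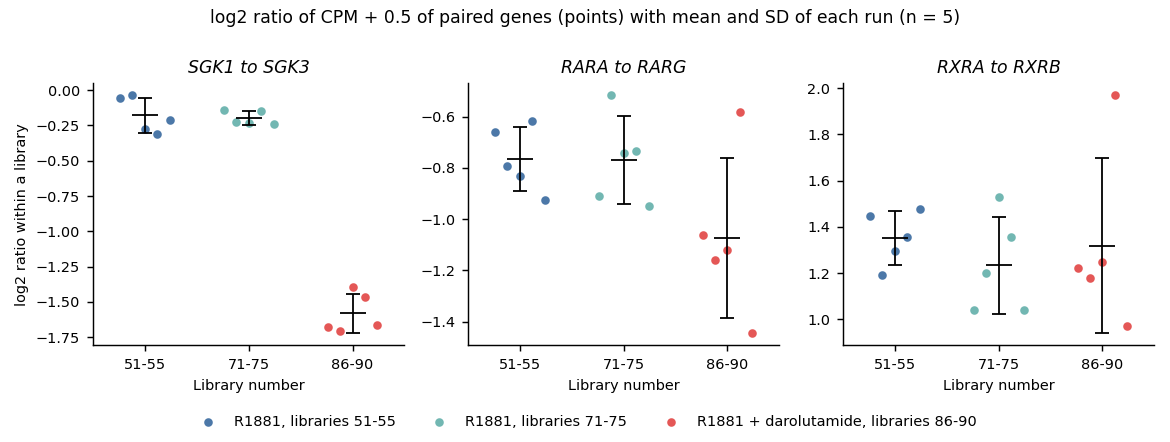
The log2 ratio of CPM + 0.5 within each library for SGK1 to SGK3, RARA to RARG and RXRA to RXRB, by library number, with the mean and SD of each run of 5 libraries. For SGK1 to SGK3 the means were -0.19 with R1881 and -1.58 with the combination, and for RXRA to RXRB they were 1.29 and 1.32.

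The sequences before the annotated starts of SGK1 and NR3C1 are shown because these 2 genes had the largest fall and the largest rise of the set, and 1 start of RXRA is shown because it carries an arm of the palindrome that steroid receptors bind. The 250 bases are from RefSeq on GRCh38.p14, written in the direction of transcription. Capitals mark the GC box GGGCGG or the palindrome arm AGAACA on either strand.
SGK1, chr6:134174867-134175116, minus strand: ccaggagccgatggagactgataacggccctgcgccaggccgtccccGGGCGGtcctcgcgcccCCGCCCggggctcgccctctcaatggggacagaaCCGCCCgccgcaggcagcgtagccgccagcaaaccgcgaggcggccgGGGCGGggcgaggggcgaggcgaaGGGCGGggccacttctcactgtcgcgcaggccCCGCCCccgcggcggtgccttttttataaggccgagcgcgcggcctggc
SGK1, chr6:134318113-134318362, minus strand: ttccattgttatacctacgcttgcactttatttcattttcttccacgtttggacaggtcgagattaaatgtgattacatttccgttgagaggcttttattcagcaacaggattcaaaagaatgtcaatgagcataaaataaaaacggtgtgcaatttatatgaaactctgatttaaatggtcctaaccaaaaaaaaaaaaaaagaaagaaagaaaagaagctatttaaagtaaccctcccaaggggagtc
NR3C1, chr5:143405356-143405605, minus strand: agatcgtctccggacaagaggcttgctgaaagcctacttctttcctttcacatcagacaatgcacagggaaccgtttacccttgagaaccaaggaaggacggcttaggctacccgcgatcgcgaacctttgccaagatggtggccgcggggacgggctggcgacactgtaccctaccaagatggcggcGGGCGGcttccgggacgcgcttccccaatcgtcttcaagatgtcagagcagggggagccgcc
NR3C1, chr5:143435513-143435762, minus strand: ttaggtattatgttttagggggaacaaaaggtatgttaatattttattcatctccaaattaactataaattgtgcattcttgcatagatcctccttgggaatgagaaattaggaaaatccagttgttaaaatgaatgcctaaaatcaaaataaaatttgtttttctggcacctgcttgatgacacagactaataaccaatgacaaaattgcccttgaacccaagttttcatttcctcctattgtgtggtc
RXRA, chr9:134379045-134379294, plus strand: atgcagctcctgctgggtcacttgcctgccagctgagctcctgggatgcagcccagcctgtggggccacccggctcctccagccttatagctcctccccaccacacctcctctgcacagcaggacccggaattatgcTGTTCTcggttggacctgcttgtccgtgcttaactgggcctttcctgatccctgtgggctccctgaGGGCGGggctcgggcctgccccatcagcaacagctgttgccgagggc
Entries were found for 8 of the 10 genes, with 20 start sites in all, and not for VDR and SGK3. Motifs were counted on both strands of the 300 bases from 250 before to 50 after each start. The steroid receptor palindrome, AGAACA followed after any 3 bases by TGTTCT, was in 0 of the 20 windows and in 0.00285% of the 35116 promoters of the table. Its arm AGAACA, which is contained in the palindrome, was in 4 of the 20, at 1 start each of SGK1 and RXRA and at 2 overlapping windows of RXRB, and in 14.8% of all promoters. The match of SGK1 lies just after another start, between those printed. GGGCGG was in 15 of the 20 windows and in 45.0% of all promoters, with 6 matches at the first SGK1 start printed, while the other SGK1 start and the last NR3C1 start printed had none. The first NR3C1 start printed had 1 match, and the NR3C1 starts not printed had 0 to 3. AGGTCA, which retinoid and vitamin D receptors recognise in pairs, was in 1 of the 20, at RARA, and in 13.8% of all. No peak or binding data were part of the study, so a match is a description of letters only.

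RARG, the retinoic acid receptor γ gene, was the only one of RARA, RARG, RXRA, RXRB and VDR to pass the test in the deposited scaling. It lies on the minus strand of chromosome 12 from 53210567 to 53232980. Its level with R1881 was 7.86 CPM at the lowest, 10.4 at the median and 13.4 at the highest, and the combination libraries gave 12.6, 13.95, 12.9, 19.3 and 13.7 CPM. The combination values were at the top of the R1881 range or above it, replicate 4 being the highest, and the groups overlapped. The log2 fold change was 0.46 (standard error 0.111, 95% confidence interval 0.22 to 0.69, adjusted p = 0.0026 from limma). Without combination replicate 4 it was 0.35 (adjusted p = 0.00649), and against the R1881 libraries 71 to 75 alone it was 0.35 (adjusted p = 0.0468).

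RARA, the retinoic acid receptor α gene on the plus strand of chromosome 17 from 40309180 to 40357643, did not pass the test. With R1881 it was at 4.33 CPM at the lowest, 5.59 at the median and 7.79 at the highest, and the combination libraries gave 5.39, 6.43, 4.40, 12.7 and 6.05 CPM. All combination libraries except replicate 4 lay within the R1881 range. Its log2 fold change was 0.15 (95% confidence interval -0.22 to 0.52, adjusted p = 0.521 from limma), and without replicate 4 it was -0.08. An antisense gene, RARA-AS1, overlaps 11.7% of its exon bases. The ratio of RARA to RARG was lower in the combination, with a log2 difference of -0.31 (p = 0.0196, adjusted p = 0.0262, exact permutation test), and its groups overlapped. This call was lost without combination replicates 1, 3 or 5, with differences of -0.28, -0.21 and -0.29, and against either run of R1881 libraries. RARB, the remaining receptor of the family, fell from 11.5 ± 1.502 to 7.59 ± 0.771 CPM (log2 fold change -0.56, adjusted p = 7.52e-05 from limma), so that the 3 retinoic acid receptor genes gave 1 rise, 1 fall and 1 gene that was not called.

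VDR, the vitamin D receptor gene on the minus strand of chromosome 12 from 47841537 to 47943048, did not pass the test. With R1881 it was at 18.1 CPM at the lowest, 21.1 at the median and 23.0 at the highest, and in the combination at 19.0, 19.2, 19.1, 21.7 and 18.9 CPM. All 5 combination values were within the R1881 range. For VDR the log2 fold change was -0.07 (95% confidence interval -0.20 to 0.06, adjusted p = 0.353 from limma), an interval that leaves room for a small change in either direction. Against the R1881 libraries 51 to 55 alone it was -0.15 (adjusted p = 0.0441), and against 71 to 75 alone it was 0.01 (adjusted p = 0.946).

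RXRA and RXRB encode retinoid X receptors α and β, the dimer partners of the retinoid, vitamin D and oxysterol receptors. RXRA lies on the plus strand of chromosome 9 from 134317098 to 134440585. With R1881 it was at 73.8 CPM at the lowest, 86.6 at the median and 115.3 at the highest, and in the combination at 88.6, 90.0, 73.9, 170.9 and 91.5 CPM. Replicate 4 was the single combination value above the R1881 range. The log2 fold change was 0.16 (95% confidence interval -0.14 to 0.47, adjusted p = 0.386 from limma) and was -0.04 without that library.

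RXRB lies on the minus strand of chromosome 6 from 33193588 to 33200665, where SLC39A7 on the opposite strand shares 9.26% of its exon bases. With R1881 it was at 31.8 CPM at the lowest, 36.0 at the median and 39.8 at the highest, and in the combination at 38.8, 38.3, 37.4, 43.3 and 38.2 CPM. The R1881 values formed separate ranges by library number, 32.8 ± 1.22 CPM (SD, n = 5) in 51 to 55 and 38.6 ± 1.30 CPM (SD, n = 5) in 71 to 75. The combination, at 39.2 ± 2.34 CPM (SD, n = 5), was near the latter. RXRB was the only one of the 10 genes called between these runs of R1881 libraries, with a log2 difference of 0.23 (standard error 0.046, adjusted p = 0.0328 from limma), where 1.1% of all genes were called. After the correction for GC content described below, this run difference was 0.11 (adjusted p = 0.414), and 4.82% of all genes with a GC value were called. Between treatments its log2 fold change was 0.14 (95% confidence interval 0.00466 to 0.27, adjusted p = 0.0842 from limma). It was 0.25 (adjusted p = 0.00164) against 51 to 55 alone and 0.02 (adjusted p = 0.773) against 71 to 75 alone. The ratio of RXRA to RXRB differed by 0.03 on the log2 scale, with p = 0.868 in the exact permutation test.

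ESRRA, which encodes ERRα, a regulator of mitochondrial energy metabolism, did not pass the test. It lies on the plus strand of chromosome 11 from 64305497 to 64316743, and TRMT112 on the opposite strand shares 9.16% of its exon bases. With R1881 it was at 24.3 CPM at the lowest, 29.5 at the median and 44.5 at the highest, and in the combination at 26.2, 25.8, 21.4, 51.0 and 24.9 CPM. Replicate 3 lay below and replicate 4 above all R1881 libraries. With all libraries the log2 fold change was -0.09 (95% confidence interval -0.43 to 0.25, adjusted p = 0.678 from limma), and without replicate 4 it was -0.30 (adjusted p = 0.0293). Its relative ESRRG was at 1.31 ± 0.346 and 1.62 ± 0.166 CPM and did not pass the test.

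NR1H2 encodes LXRβ, an oxysterol receptor that controls cholesterol export, and had the largest SD within groups of log2(CPM + 0.5) among the 10 genes (0.551). It lies on the plus strand of chromosome 19 from 50329653 to 50383388, and NAPSA on the opposite strand shares 22.1% of its exon bases. With R1881 it was at 15.6 CPM at the lowest, 19.99 at the median and 38.4 at the highest, and in the combination at 17.5, 17.1, 9.55, 49.6 and 18.3 CPM. The highest R1881 value was that of replicate 6, and the combination held both the lowest and the highest of all 15 values. The log2 fold change was -0.14 (95% confidence interval -0.70 to 0.42, adjusted p = 0.71 from limma), 0.02 in edgeR and 0.03 in DESeq2. Without combination replicate 4 it was -0.47 (adjusted p = 0.0383). NR1H3, which encodes LXRα, was at 10.1 ± 1.51 and 9.73 ± 1.75 CPM and did not pass the test.

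The spread within groups of most of the 10 genes moved with the GC trend of the libraries. Transcripts of RARA, RARG, RXRA, RXRB, ESRRA, NR1H2 and VDR had a GC content of 54.2 to 64.2%, and combination replicate 4 was the highest combination library for each of them. Transcripts of NR3C1, SGK1 and SGK3 had 38.1 to 41.1%, and replicate 4 was the lowest combination library for SGK1 and SGK3. A correction of each library for the GC content of the genes (natural spline) lowered the SD within groups of log2(CPM + 0.5) from 0.334 to 0.0706 for ESRRA, from 0.300 to 0.0863 for RXRA and from 0.355 to 0.119 for RARA. For NR1H2 it fell from 0.551 to 0.307, and for VDR and RXRB it did not fall (0.108 and 0.112 for VDR, 0.118 and 0.130 for RXRB). It also fell for RARG (0.218 to 0.122), SGK3 (0.132 to 0.0701) and SGK1 (0.139 to 0.0980), and little for NR3C1 (0.226 to 0.213). After the correction 7 of the 10 genes were called, 3 lower and 4 higher, where 60.9% of all genes with a GC value were called, 31.3% lower and 29.7% higher. The added calls were RXRA at 0.19 (adjusted p = 0.000578), RXRB at 0.18 (adjusted p = 0.0198) and ESRRA at -0.10 (adjusted p = 0.0318), the last of which was lost with a replicate block in the same fit (-0.11, adjusted p = 0.0731). SGK1 at -2.23, SGK3 at -0.85, NR3C1 at 0.98 and RARG at 0.49 kept their calls. Without combination replicate 4, the calls were 4 lower and 2 higher, where 51.4% of all genes were called, 27.7% lower and 23.7% higher.

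**Figure D3:**
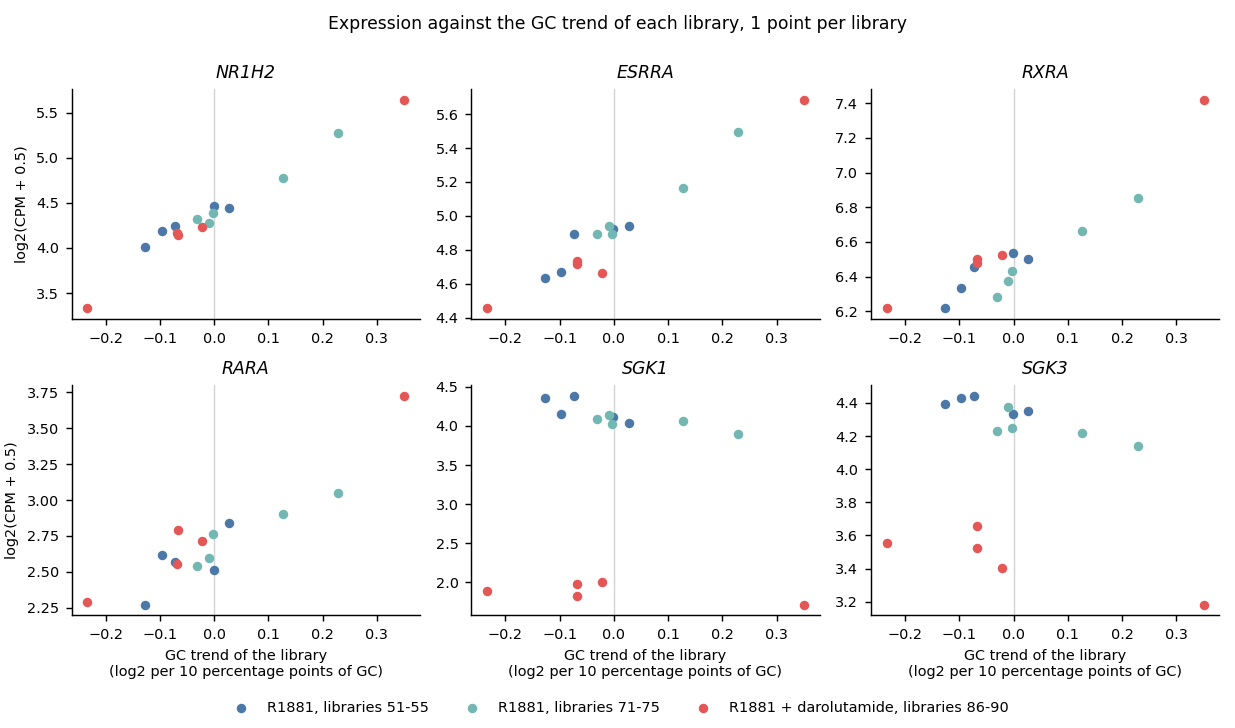
Expression as log2(CPM + 0.5) of 6 of the genes (vertical axes) against the GC trend of each library (log2 per 10 percentage points of GC, against the mean of all libraries), 1 point per library. NR1H2, ESRRA, RXRA and RARA were highest in the library of trend 0.350. SGK1 and SGK3 separated by treatment, and among the combination libraries both were lowest in that library.

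**Figure D4:**
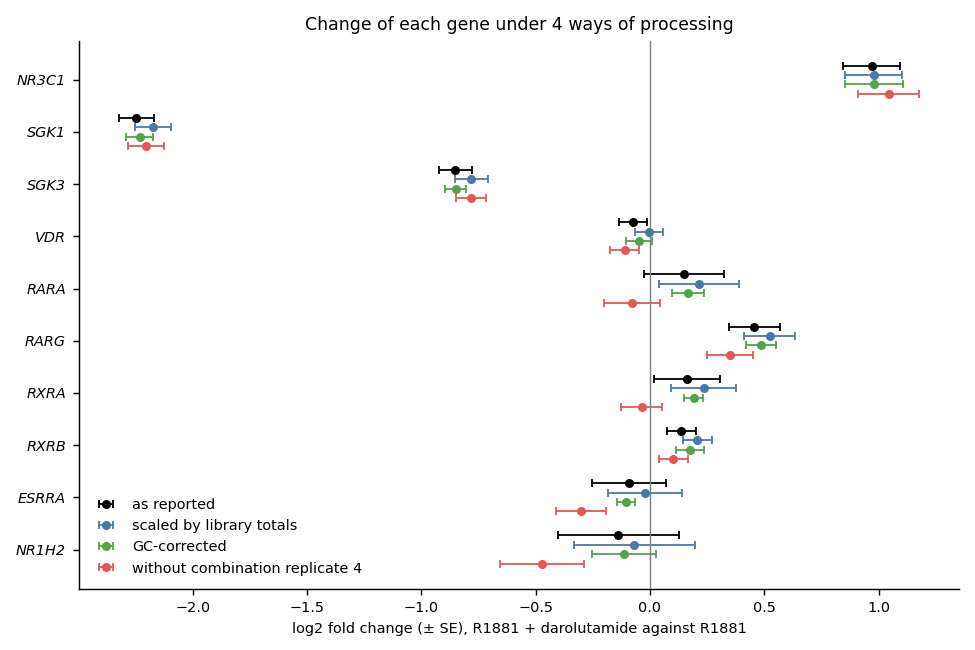
The log2 fold change ± standard error (horizontal axis) of each gene for R1881 with darolutamide against R1881, as reported, scaled by library totals, corrected for GC content and without combination replicate 4. SGK1 stayed near -2.25 in these, whereas NR1H2 went from -0.14 to -0.47 without that replicate.

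Per kilobase of exon, the receptor genes covered a wide range of levels. The length used was that of all annotated exons of a gene merged, not of the transcripts expressed. The order of the genes therefore depends on the annotation as well. With R1881, ESRRA at 9.91 ± 1.84 CPM per kilobase (SD, n = 10), RXRB at 9.16 ± 0.841 and RXRA at 7.33 ± 1.01 were the highest, followed by NR1H2 at 4.10, VDR at 3.64 and SGK3 at 3.42. RARG at 2.03, SGK1 at 1.71 and RARA at 1.25 came next, and NR3C1 was last at 0.0154. Neighbours in this order overlapped in their ranges over libraries, apart from SGK3 above RARG and RARA above NR3C1. In the combination RXRB came first at 10.1 ± 0.600 CPM per kilobase (SD, n = 5), SGK1 was ninth at 0.321, and NR3C1 remained last at 0.0856.

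The pattern over the 15 libraries was compared with that of other genes of a mean of at least 1 CPM by the root mean square difference of log2(CPM + 0.5), each gene centred on its mean with R1881. Closest to SGK1 were ACAD8 (0.116), which encodes a mitochondrial dehydrogenase of valine breakdown, PAK1IP1 (0.121) and CYP2U1 (0.132), a cytochrome P450. ACAD8 fell from 289.9 ± 15.01 to 60.5 ± 2.74 CPM. Closest to NR3C1 were TMEM38B (0.166), SLFN5 (0.181) and FAM134B (0.188), of which TMEM38B rose from 27.4 ± 1.40 to 54.3 ± 5.30 CPM. This choice depends on the pseudocount of 0.5, since the log2 fold changes of these 3 genes (0.97, 0.92 and 1.00) match the 0.97 of NR3C1 on that scale, while its pooled read ratio was 5.82.

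Among 22 of 39 other nuclear receptor genes that the table holds, 7 fell, 5 rose and 10 did not pass the test, with a median log2 fold change of 0.12, where that of all genes was 0.00. Over all genes, 23.7% were called lower and 22.8% higher. NR4A1, an immediate early orphan receptor, fell from 22.2 ± 3.48 to 4.36 ± 2.10 CPM, and the thyroid hormone receptor gene THRB fell from 82.8 ± 3.79 to 52.7 ± 2.42 CPM (log2 fold changes -2.30 and -0.65). PGR, RXRG and ESRRB were not among the genes listed.

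**Figure D5:**
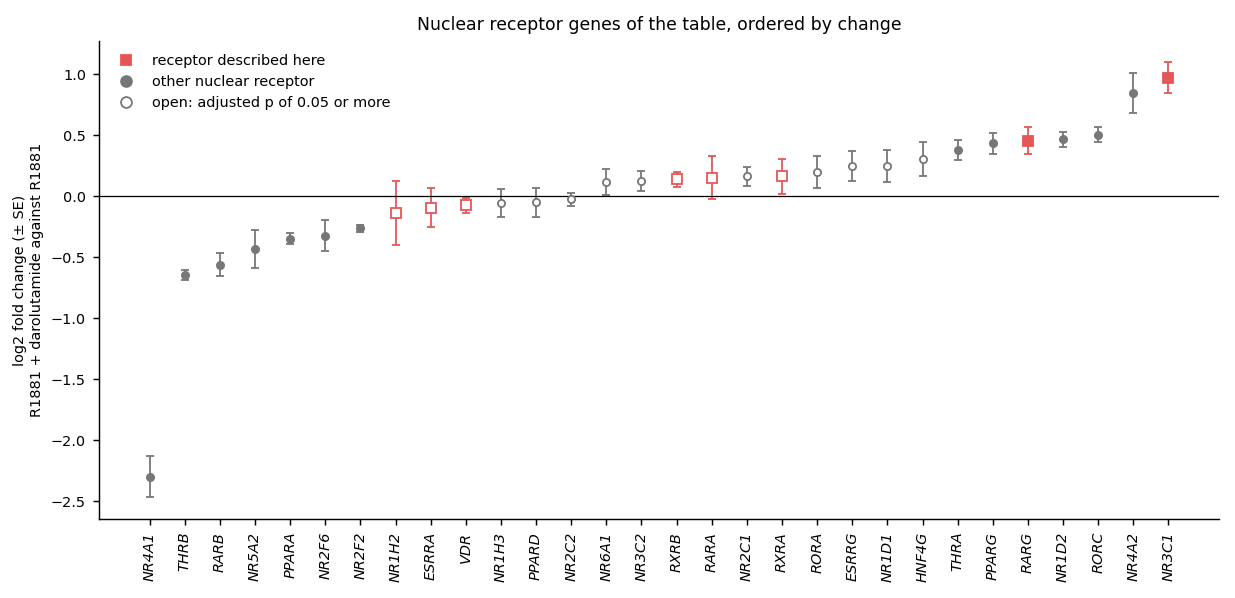
The log2 fold change ± standard error (vertical axis) of the 8 receptor genes described here (squares) and the 22 other nuclear receptor genes (circles), ordered by change. Open symbols did not pass the test, NR4A1 was lowest at -2.30, and NR3C1 was at 0.97.

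Most genes of a list of known glucocorticoid-induced genes that the table holds fell. The list holds genes that are androgen-induced as well, such as FKBP5, and the part of this in the falls was not tested. Of 18 of its 26 genes in the table, 12 fell, 2 rose and 4 did not pass the test, with a median of -0.50. Beside this, 23.7% of all genes were called lower and 22.8% higher. FKBP5 fell by 3.30, ERRFI1, a feedback inhibitor of EGFR, fell by 1.97 from 169.5 to 42.8 CPM, and CRISPLD2 fell by 1.35 on the log2 scale. The higher genes were TSC22D3 (0.23), which encodes the glucocorticoid-induced leucine zipper, and the sodium channel gene SCNN1A (0.23), named after their values were seen. In the list of receptor chaperones and cortisol-metabolising enzymes, 8 of 16 genes in the table (of 17) were lower and 1 was higher, with a median of -0.11, and with scaling by library totals 5 were lower and 2 higher. Scaled in that way, 17.5% of all genes were lower and 30.8% higher. The cochaperone genes PTGES3 (-0.31) and STIP1 (-0.31) were among those lower. The higher gene was HSD11B2, which encodes the enzyme that inactivates cortisol, which went from 15.1 ± 2.84 to 21.8 ± 8.12 CPM (log2 fold change 0.46, adjusted p = 0.0268 from limma). Its groups overlapped, and its median in the combination, 19.7 CPM, lay below its highest R1881 value, 20.4 CPM. The highest combination value was 35.6 CPM. Against the R1881 run of higher library numbers alone, no gene of this list was called higher, and the share of all genes in that fit is not given here. HSD11B2 was named after its values were seen.

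Of 18 genes in the table (of 21) for activators and substrates of the SGK kinases, 8 fell, 2 rose and 8 did not pass the test, with a median of -0.11. The shares over all genes were 23.7% lower and 22.8% higher. NDRG1, a substrate phosphorylated by SGK1, fell from 766 ± 37.0 to 110.9 ± 7.82 CPM (log2 fold change -2.78, adjusted p = 1.92e-18 from limma). MTOR, the kinase of the complexes upstream of SGK, fell from 144.6 ± 5.87 to 83.97 ± 3.45 CPM, and FOXO1, a transcription factor that SGK kinases phosphorylate, fell from 12.2 ± 1.18 to 8.53 ± 0.811 CPM. Among other subunit genes of these complexes, MAPKAP1 was lower (-0.09), while RICTOR (0.04), MLST8 (0.12) and PRR5 (0.03) did not pass the test. The 2 higher genes were NDRG2 (0.11) and SCNN1A (0.23). These additional genes were named after their values were seen. All these values are RNA levels, and kinase activity was not measured.

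For the ligand pathways of the other receptors, the table holds few genes. Their counts stand beside 23.7% of all genes called lower and 22.8% called higher. Of 9 genes (of 24) of retinoid metabolism and response, 4 were lower and 3 were higher, with a median of -0.19. The retinoic acid response gene TGM2 (-1.41), the retinaldehyde dehydrogenase gene ALDH1A3 (-0.76) and the retinol dehydrogenase gene RDH10 (-0.67) were lower. The higher genes, named after their values were seen, were RDH11 (0.36), HOXA5 (0.56) and RARRES3 (0.39). RDH11 went from 506.8 to 650.2 CPM. Low levels were found for TGM2 (2.61 and 0.691 CPM), HOXA5 (0.707 and 1.27 CPM) and RARRES3 (1.34 and 1.89 CPM). Of 4 vitamin D genes (of 15), 2 were higher, with a median of 0.13, among them the calcium channel gene TRPV6, which went from 27.1 ± 2.11 to 43.4 ± 4.67 CPM (log2 fold change 0.67). Of 9 target genes (of 17) of the LXR receptors, 2 were lower and 3 were higher, with a median of 0.12, and with scaling by library totals 1 was lower and 5 were higher. With that scaling, 17.5% of all genes were lower and 30.8% higher. The cholesterol exporter gene ABCA1 rose from 0.597 ± 0.174 to 4.28 ± 1.17 CPM (log2 fold change 2.10, adjusted p = 1.87e-09 from limma), ABCG1 rose by 0.63, and the desaturase gene SCD fell by 0.47 on the log2 scale. Of 13 genes (of 17) for coactivators and targets of ERRα, 4 were lower and 1 was higher, with a median of -0.05. The fatty acid oxidation gene ACADM fell from 177.6 ± 11.3 to 107.2 ± 9.30 CPM, and IDH3A and PPRC1 were each at -0.32.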

How the data were processed

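Polyadenylated RNA of LNCaP cells was prepared with a stranded mRNA kit and sequenced as single-end reads of 50 bases in 15 libraries. The submitters' processing notes name bcl2fastq 2.17, STAR, Subread, featureCounts and GRCh38, and other versions, the gene annotation and the strand setting of the counting are not given in the sources used here. The authors deposited 1 table of signal per gene in CPM, in which the values of a library are whole reads divided by 1 factor (100% of values within 0.001 reads). Groups and doses follow the labels, since the methods of the paper give other group sizes and another R1881 concentration. limma 3.58.1 (R 4.3.3, trend, no filter on low values) was fitted to log2(CPM + 0.5) of all 17272 genes, with Benjamini-Hochberg adjustment and a threshold of 0.05. Since the values were scaled, edgeR 4.0.16 with TMM (3943 genes lower, 4106 higher) and DESeq2 1.42.0 (3793 lower, 4080 higher) on the recovered reads served as alternatives, as did a pseudocount of 0.1 or 1, library totals as the scale, a filter at a mean of 1 CPM, a replicate block, each R1881 run alone, a GC correction and the omission of libraries. The GC correction used a natural spline with 5 degrees of freedom over the 14817 genes matched to GENCODE 44, 862 of them by an older symbol. Ratios within libraries were tested by exact permutation and adjusted over 4 ratios, of which 1 is not reported here, and 1 gene was left out of the lists. The test was also run on simulated reads, with changes placed only in genes of a mean of 1 CPM or more, and the outcome is not reported here. The simulation held no GC trend of libraries. It therefore covers neither the spread of combination replicate 4 nor the low reads of NR3C1. Named genes were the 10 genes, their paralogs, KLK3 and FKBP5, up to 3 genes of largest absolute change in each list among called genes whose groups did not overlap and whose mean was 1 CPM or more, and the 3 genes closest in pattern to NR3C1 and to SGK1. The genes and lists were chosen with earlier results of these data known. At 15830745 to 25317567 recovered reads per library over the listed genes, NR3C1 with R1881 rested on 1 to 4 reads and is limited by counting error.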

Additional observations from a re-analysis of the deposited data

Results flagged for a closer look

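In 94 groups of values, 11 had 1 library far from the rest of its group (Dixon's ratio), where chance gives about 1 in 20. Combination replicate 4 was that library for 7 of the 10 genes, with VDR at 21.69 CPM (others 18.9 to 19.2), RARA at 12.73 (4.40 to 6.43), RARG at 19.28 (12.6 to 13.95), RXRA at 170.9 (73.9 to 91.5), RXRB at 43.29 (37.4 to 38.8), ESRRA at 50.97 (21.4 to 26.2) and NR1H2 at 49.56 (9.55 to 18.3). The same library was far from the rest for FKBP5 at 133.2 CPM (154.2 to 162.2) and NR4A1 at 7.969 CPM (2.60 to 4.004). R1881 replicate 6 stood apart for NR1H2 at 38.35 CPM (15.6 to 27.0), and combination replicate 3 for ACAD8 at 55.71 CPM (61.1 to 62.6).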

How the results depend on the processing

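SGK1, SGK3, NR3C1 and RARG kept their direction and call under each alternative run, except that NR3C1 was not tested under a minimum mean of 1 CPM, and leaving out single libraries gave -2.28 to -2.20, -0.90 to -0.78, 0.86 to 1.09 and 0.35 to 0.50. On the same log2 scale, leaving out single libraries gave -0.0773 to 0.281 for RARA, -0.0352 to 0.266 for RXRA, 0.10 to 0.16 for RXRB (called without R1881 replicate 6), -0.302 to 0.00604 for ESRRA and -0.47 to 0.11 for NR1H2 (each called without combination replicate 4, and each turned without combination replicate 3). For the ratios this gave -0.43 to -0.21 for RARA to RARG and -0.14 to 0.11 for RXRA to RXRB. Without R1881 replicate 6 and combination replicate 4 together, an alternative chosen after seeing the data, RARA was at -0.0345, ESRRA at -0.24 and NR1H2 at -0.38, the last 2 called. Against the R1881 libraries 51 to 55 alone, VDR was called at -0.15 and RXRB at 0.25, ESRRA turned to 0.0394, NR1H2 to 0.0319 and RXRA to RXRB to -0.0339, and RARA to RARG was not called at -0.31. Against 71 to 75 alone, VDR turned to 0.00725 and RARA to RARG was not called at -0.30. NR1H2 turned to 0.0189 in edgeR and 0.0330 in DESeq2. RXRB was called at 0.21 with scaling by library totals, which moved the median of all genes to 0.07. The GC correction called RXRA at 0.19, RXRB at 0.18 and ESRRA at -0.10. It moved the differences between the R1881 runs to 0.0919 for NR3C1 and -0.0421 for RXRA, which turned, to -0.22 for VDR, which was then called, and to 0.11 for RXRB, which was not. The causes were not tested.

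The replicate numbers were not taken as pairs, since the correlation of deviations between same-numbered libraries was -0.139 to 0.335 and 0 of 5 combination libraries were closest to their own number. The replicate block changed no call of the 10 genes (NR3C1 0.96, SGK1 -2.21, SGK3 -0.84, RARG 0.38) and gave 3165 genes lower and 3077 higher in place of 4098 and 3946. Together with the GC correction, the block called RXRA at 0.21 and RXRB at 0.15, while ESRRA, called by the GC correction without the block, was not called at -0.11 (adjusted p = 0.0731 from limma).

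With scaling by library totals, 3030 genes were lower and 5326 higher, and list counts moved to 5 lower and 2 higher for chaperones and cortisol enzymes and to 1 lower and 5 higher for LXR targets. The GC correction also gave 5 higher LXR targets, where 29.7% of all genes with a GC value were higher. Against 51 to 55 alone, 1 SGK gene, 1 vitamin D gene and 0 ERRα genes were higher, and against 71 to 75 alone 8 other nuclear receptor genes, 0 chaperone, 1 glucocorticoid-induced and 1 vitamin D gene. Without R1881 replicate 6 and combination replicate 4, 1 vitamin D gene was lower. The shares of all genes called against a single R1881 run, or without these libraries, are not given here. These list counts therefore have no background beside them and are a description only. Reads of 1 to 4 per R1881 library limit NR3C1, the overlapping genes limit SGK3, NR1H2, RARA, RXRB and ESRRA, and treatment and library number cannot be told apart.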
